A study of Mus musculus with 15 samples.

Results

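Insulin and insulin-like growth factor 1 (IGF1) act on bone-forming cells through a shared relay. Each hormone binds a receptor tyrosine kinase (Insr or Igf1r), the receptor phosphorylates docking proteins of the IRS family, and Gab docking proteins serve a similar role downstream of growth factor and cytokine receptors. The docked proteins recruit PI3-kinase, whose lipid product brings Pdpk1 and Akt1 to the membrane, where Pdpk1 activates Akt1. IGF1 is among the most abundant growth factors of bone matrix, and its receptor on osteoblasts is needed for normal mineralization.

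The transcripts of 10 genes of this relay were followed in the femoral midshaft: the adaptors Gab1, Gab2, Gab3, Irs1 and Irs2, the ligand Igf1, the receptors Igf1r and Insr, and the kinases Pdpk1 and Akt1. Their probes were found through the accession that the array file pairs with each probe, which gave 19 probes for the 10 genes among 55681 probes in all, of which 28026 were matched to a symbol of 21154 genes. Gab3, Irs1 and Pdpk1 were picked by the study from its comparison of spaceflight with ground surgery mice. Values of all 10 genes in that comparison are therefore given as a description without a test, and the same holds for those 3 genes wherever its arrays enter again.

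All mice were male C57BL/6J, labelled as 9 weeks old, which the study's methods give as the approximate age at surgery, with tissue collected some weeks later. The labels name no transgene. FLT mice flew on the International Space Station and G mice were kept on Earth in the same kind of hardware. Surgery mice carried a segmental bone defect of the femur and received a polymer and tricalcium phosphate graft wrapped in a collagen sponge soaked in saline, while Sham mice had no defect (the study's methods call them both unoperated and sham-operated). Each Sham group held 4 arrays, as did G-Surgery, and 3 arrays came from FLT-Surgery, with each array labelled as its own sample. Carcasses were frozen whole and the bones dissected later, and the RNA quality measures that the study gives are low, and were described as comparable between flight and ground. Each array compared bone RNA in Cy5 with a reference RNA pooled from 11 mouse cell lines in Cy3, always in that dye orientation. The measure is the log2 ratio of Cy5 over Cy3, in which a difference of 1 between groups is a 2-fold difference.

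The array file holds no probe sequences. The sequences at hand for these genes are the PCR primers that the study lists for Gab3, Irs1 and Pdpk1, shown because they are the oligonucleotides with which it measured the 3 genes a second time. They were not placed on transcripts here, and they are written 5′ to 3′ in lower case without a marked part.
Gab3 forward: agcactggtgacactgtgtg
Gab3 reverse: aggattgccactcatgcgg
Irs1 forward: cgatggcttctcagacgtg
Irs1 reverse: cagcccgcttgttgatgttg
Pdpk1 forward: gtgcccattcagtccagtgt
Pdpk1 reverse: aaggggttggtgcttggtc
The PCR values were not analysed here.

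Between 12493 and 21461 probes per array were well above background in Cy5, by the scanner software's own flag. The range was 12869 to 18300 in G-Sham, 14813 to 21461 in FLT-Sham, 14309 to 20697 in G-Surgery and 12493 to 14260 in FLT-Surgery. The 15 arrays lay on 3 slides, and slides 1 and 2 each held arrays of all 4 groups. The labelled tissue was checked against 12 osteoblast and osteocyte markers: Col1a1 and 7 others were above background on some array, while Sp7, Dmp1, Sost and Phex were on none. All 12 skeletal muscle markers were above background on some array.

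Of the 10 genes, 8 were above background on at least 1 array and 7 passed the filter used for testing, which asked for at least 3 of the arrays compared. Irs2, Akt1 and at least 1 probe each of Gab3, Igf1 and Pdpk1 were above background on all 15 arrays. Gab1, an adaptor of the EGF and Met receptor pathways, and Gab2, an adaptor of cytokine and Fc receptors, were on none. Insr was above background at 1 of its 3 probes only, on 2 FLT-Sham arrays.

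**Figure D1:**
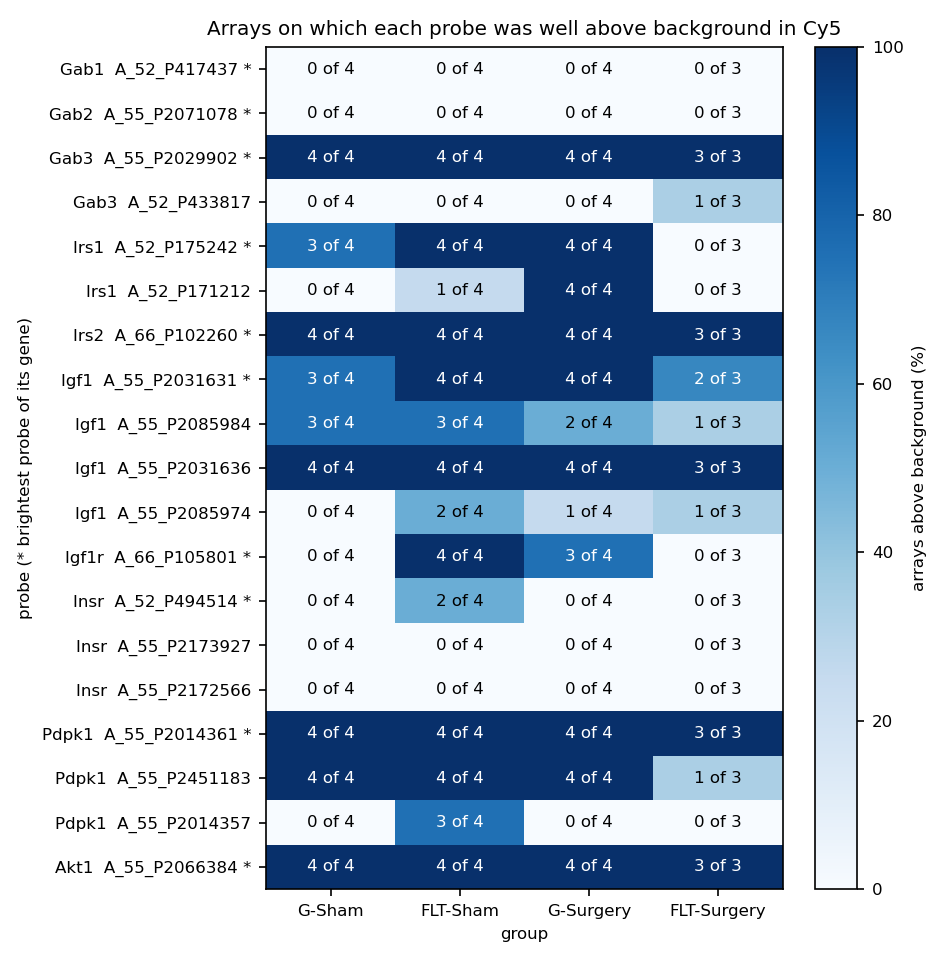
Number of arrays per group on which each of the 19 probes was well above background in Cy5; rows are probes, columns are groups, and the shade gives the percentage of the group's arrays. Igf1r went from 0 of 4 G-Sham arrays to 4 of 4 FLT-Sham arrays, and Irs1 from 4 of 4 G-Surgery arrays to 0 of 3 FLT-Surgery arrays at both probes.

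Among the Gab adaptors, Gab3 stood at log2 ratios of 5.33, 5.80, 5.08 and 6.72 on the G-Sham arrays and 5.89, 5.91, 5.02 and 6.41 on the FLT-Sham arrays at its brightest probe, A_55_P2029902. The G-Surgery arrays gave 4.95, 4.58, 4.53 and 4.54, and the FLT-Surgery arrays 7.39, 6.09 and 6.25. The sham groups overlapped, every FLT-Surgery array lay above every G-Surgery array, and every G-Surgery array lay below every G-Sham array. Gab3 is expressed mainly in cells of the macrophage and lymphoid lineages, where it docks downstream of the receptor for macrophage colony-stimulating factor.

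At the brightest probe the FLT-Surgery mean of Gab3 was 1.93 ± 0.37 (SE) above the G-Surgery mean on the log2 scale, a 3.80-fold difference. That probe's Cy5 signal stood at percentile 98.8 to 99.8 on the arrays, and whether it reads Gab3 alone was not tested. The G-Surgery mean was 1.09 ± 0.37 (SE) below the G-Sham mean, and the FLT-Surgery mean was 0.77 ± 0.49 (SE) above the FLT-Sham mean. These are descriptions, since the gene was picked on the surgery arrays. The sham arrays did not choose it: FLT-Sham and G-Sham differed by 0.07 ± 0.46 (SE), with an adjusted p of 0.939 in limma's test. The sign of that small difference turned with the scaling of the arrays, while the surgery difference stayed between 1.52 and 2.17 under each scaling tried and each array left out.

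The second Gab3 probe, A_52_P433817, is paired with the same accession and did not measure the transcript on most arrays. It was above background on 1 of 15 arrays, FLT-Surgery replicate 1, where its log2 ratio was 1.87. The other FLT-Surgery arrays gave -0.12 and -2.36, and the G-Surgery arrays lay between -3.03 and -2.13. A probe below background gives only an upper limit, so the second probe measured no difference between the groups.

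The brightest Gab3 probe shared its pattern over the 15 arrays with probes of genes known from other tissues. After each probe's mean over the arrays was taken off, the nearest of 5080 symbol-named probes were Ermn, an oligodendrocyte cytoskeletal protein, at a root mean square difference of 0.080 log2 units, and Gcm1, a placental transcription factor, at 0.099. Pigr, the epithelial receptor that carries polymeric antibodies, lay at 0.114, Dcc, an axon guidance receptor, at 0.118, and Rhox8, a reproductive homeobox gene, at 0.125. The Gab3 probe itself varied by 0.833 around its own mean, and Pearson's r with these 5 probes was 0.992 to 0.996 over 15 arrays that share their labelling and reference.

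The group that followed this pattern was larger than 5 probes. Among 8294 probes above background on all 15 arrays, 36 others lay within 0.2 log2 units of the Gab3 probe, of which 6 carry a symbol, and only 39 within 0.3. This limit was chosen after the values were seen. The 36 probes also shared the level of the Gab3 probe: their mean log2 ratios over the arrays ran from 5.30 to 5.72, against 5.63. The Igf1 probe A_55_P2031636 varied about as widely over the arrays, by 0.797, and had 0 probes within 0.2 or 0.3 of it. Member probes that varied less had more: Irs2, at 0.166, had 42 within 0.2 and 724 within 0.3. Akt1, at 0.452, had 11 and 82, and the brightest Pdpk1 probe, at 0.407, had 0 and 100. The other probes of the neighbouring genes were not all above background: the second probe of Pigr and the other 2 probes of Dcc were on 0 of 15 arrays, and 1 probe of Gcm1 on 1. The remaining probes of Gcm1, both probes of Ermn and both of Rhox8 were above background on all 15.

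All 36 probes lay past the cut-off as higher in FLT-Surgery than in G-Surgery, where they made up 20.8% of the 173 probes called higher. Since they were chosen for lying close to a probe that differs in this comparison, their direction follows from the choice. The cut-off is that of the study: groups had to differ 2-fold or more, with p at or under 0.01 before adjustment. What these probes have in common beyond their values was not tested, since the array file holds neither their sequences nor their specificity.

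**Figure D2:**
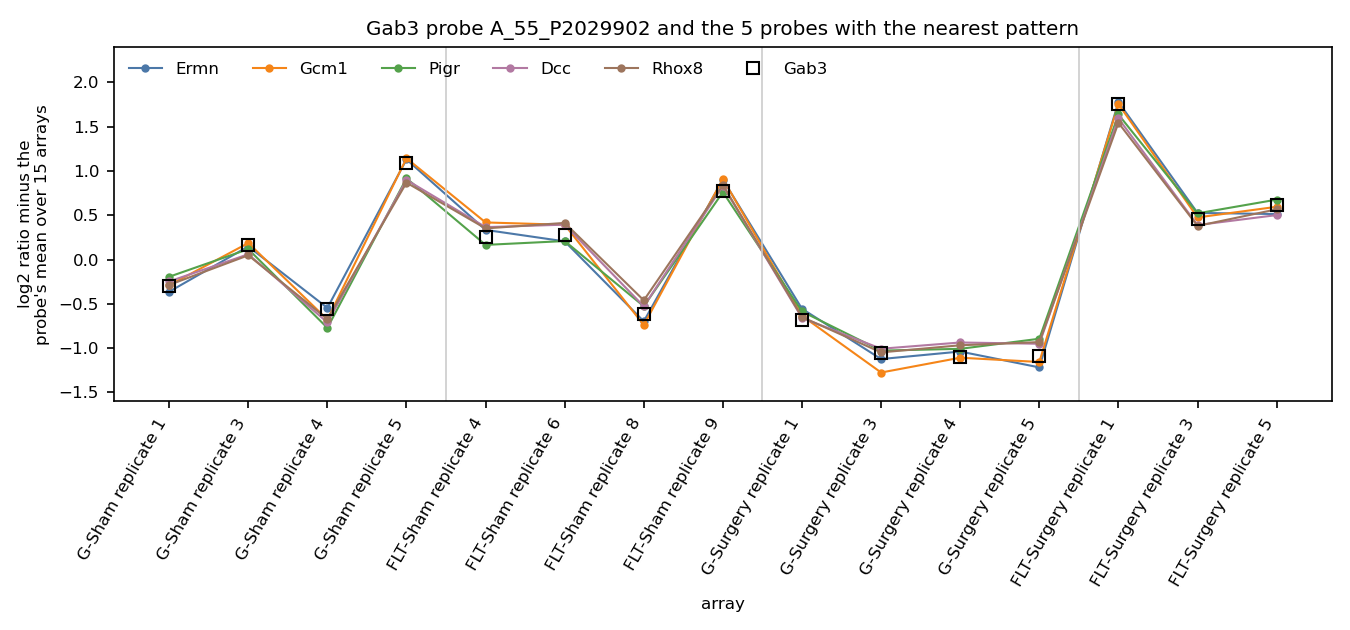
Log2 ratio of the brightest Gab3 probe (open squares) and of the 5 symbol-named probes nearest to it (coloured lines), each minus its own mean over the 15 arrays, with arrays along the horizontal axis and vertical lines between groups. The 5 probes of other genes track Gab3 on every array, to within root mean square differences of 0.080 to 0.125.

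Of the insulin receptor substrates, Irs1, the main docking protein of IGF1 signalling in osteoblasts, varied widely and Irs2 hardly at all. At the brightest Irs1 probe, A_52_P175242, the log2 ratios were -3.0, 0.37, -0.02 and 0.20 in G-Sham and 1.25, 1.44, -0.05 and 0.49 in FLT-Sham. They were -0.90, 0.72, 0.27 and -0.08 in G-Surgery and -0.90, -1.50 and -3.79 in FLT-Surgery. The probe was above background on 3 of 4 G-Sham, 4 of 4 FLT-Sham and 4 of 4 G-Surgery arrays, and on 0 of 3 FLT-Surgery arrays.

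Under the normalization used for bounds, Irs1 was at least 3.31-fold higher in G-Surgery than in FLT-Surgery and at least 5.25-fold higher in FLT-Sham than in FLT-Surgery. The bounds, here and below, set the mean normalized Cy5 signal over all arrays of the higher group against that of the other group. On each array of the other group, the probe's own signal was used, or the lowest signal called above background where that was larger. The bounds rest on 1 normalization and 1 dye orientation, and they are not lower limits under other scalings. The fitted difference between FLT-Surgery and G-Surgery was -2.06 ± 0.72 (SE), and it was -1.20 without FLT-Surgery replicate 5, -1.18 with a further loess and -0.29 under normexp background correction. The surgery groups touched at a single value, the lowest G-Surgery and the highest FLT-Surgery array both rounding to -0.90.

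The second Irs1 probe, A_52_P171212, gave 2.82, 1.55, 1.5 and 1.66 in G-Surgery and 0.10, -1.14 and 0.26 in FLT-Surgery, without overlap, with a fitted difference of -2.14 ± 0.48 (SE) and a bound of at least 2.22-fold. Both probes thus moved the same way between the surgery groups. They differed elsewhere: the second was above background on 0 of 4 G-Sham arrays and 1 of 4 FLT-Sham arrays, and its G-Surgery arrays all lay above its G-Sham arrays, by at least 2.19-fold. At the first probe G-Surgery and G-Sham overlapped, with a difference of 0.61 ± 0.75 (SE).

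Among sham mice, Irs1 was 1.40 ± 0.77 (SE) higher in FLT-Sham, a 2.63-fold difference with an adjusted p of 0.522, and the groups overlapped. The low G-Sham array, replicate 1, carried much of it: without that array the difference was 0.60, and with all arrays it was 0.82 after a further loess and 0.40 under normexp. G-Sham replicate 1 also had the fewest probes above background of its group, 12869.

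Irs2, the substrate that carries most insulin signalling in liver and islet cells, ran from 0.11 to 0.53 in G-Sham, 0.19 to 0.65 in FLT-Sham, 0.08 to 0.54 in G-Surgery and 0.39 to 0.53 in FLT-Surgery. The 4 group means lay between 0.31 and 0.45. The differences between groups were 0.09 ± 0.28 (SE) in the sham comparison, 0.08 ± 0.24 (SE) between the surgery groups, 0.06 ± 0.23 (SE) for G-Surgery against G-Sham and 0.05 ± 0.32 (SE) for FLT-Surgery against FLT-Sham.

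By the same measure as for Gab3, the symbol-named probes near the brightest Irs1 probe, among 7826 compared, included those of Ube2e1, Repin1, Nfib and Uba2, at root mean square differences of 0.400 to 0.439. The Irs1 probe varied by 1.41 around its own mean.

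Igf1r, the receptor for IGF1, was above background in FLT-Sham and G-Surgery only. It was at log2 ratios of -5.20, -3.23, -3.21 and -3.16 in G-Sham and -1.85, -1.18, -2.23 and -1.96 in FLT-Sham, with no overlap. The probe was above background on 0 of 4 G-Sham and 4 of 4 FLT-Sham arrays, which by the bound described above puts FLT-Sham at least 2.92-fold above G-Sham. The probe was dim: before dye scaling its Cy5 signal was 2.62 to 9.60 in G-Sham and 9.07 to 55.9 in FLT-Sham. G-Sham replicate 4, not called above background, read 9.60, and FLT-Sham replicate 8, called above it, read 9.07. The signal was 6.92 to 13.6 in G-Surgery and -0.42 to 9.1 in FLT-Surgery.

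The fitted Igf1r difference between FLT-Sham and G-Sham was 1.90 ± 0.52 (SE), with an adjusted p of 0.450 in limma's test. It lay past the cut-off, alone among the 7 genes tested, as did 2.0% of all 19739 probes tested. The probe entered the test only through FLT-Sham, the group where it was high, so a difference was built into its passing the filter and the call is no support beyond the values. Without the filter its adjusted p was 0.558, and where a probe had to be above background in both channels it was not tested. Groups of arrays that did not overlap were found at 4.60% of probes. None of the 19739 probes tested had an adjusted p of at most 0.05 in this comparison in limma's test. An unadjusted p of at most 0.05 was found at 1890. The alternatives differed: an adjusted p of at most 0.05 was found at 1 probe without the filter and at 2 with all 15 arrays in the fit. It was found at 594 without FLT-Sham replicate 8 and at 5508 with array weights. The Igf1r call was lost with the slide as a block (2.09) and without FLT-Sham replicate 4 (1.91), replicate 6 (1.69) or replicate 9 (1.95), and over all alternatives its adjusted p ran from 0.020 to 0.919. Under normexp background correction the difference turned to -0.12. Within slide 1 it was 1.38 and within slide 2 it was 2.39.

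In the surgery groups Igf1r gave -2.41, -1.91, -1.46 and -3.07 in G-Surgery and -2.83, -3.65 and -5.60 in FLT-Surgery. It was above background on 3 of 4 and 0 of 3 arrays, so that G-Surgery lay at least 2.64-fold above FLT-Surgery. The groups overlapped in 1 array, G-Surgery replicate 5. The fitted difference of -1.82 ± 0.69 (SE) is a description. It was -1.03 without FLT-Surgery replicate 5, -0.97 with a further loess and 0.19 under normexp.

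Compared across operations on the ground, Igf1r was at least 2.43-fold higher in G-Surgery than in G-Sham, without overlap, with a fitted difference of 1.49 ± 0.55 (SE) and an adjusted p of 0.388. In flight it was at least 3.18-fold higher in FLT-Sham than in FLT-Surgery, again without overlap, with a fitted difference of -2.22 ± 0.66 (SE) and an adjusted p of 0.151. Neither passed the cut-off, and in each the probe entered the test only through the higher group. Under normexp the first difference was 0.06 and the second turned to 0.37. The second was -1.43 without FLT-Surgery replicate 5, and it passed the cut-off without FLT-Surgery replicate 1 (-2.82).

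The spaceflight difference of Igf1r in surgery mice minus that in sham mice was -3.71 ± 0.90 (SE), with an adjusted p of 0.168 in limma's interaction test over all 15 arrays. It passed the cut-off, which 5.33% of 21777 probes did. The probe was above background on 0 G-Sham and 0 FLT-Surgery arrays, so it entered this test only through FLT-Sham and G-Surgery, where it was high. The call, also with an array left out, is therefore no support beyond the values. In each fit with 1 array left out 1 of the 4 genes passed, and 0 passed under normexp or where a probe had to be above background in both channels. The other 3 genes tested did not pass: Irs2 gave -0.01, Akt1 0.28 and Igf1 -1.80, with adjusted p of 0.990, 0.788 and 0.319. As descriptions, the same term was 1.85 for Gab3, -3.46 for Irs1 and -0.78 for Pdpk1.

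Insr, the insulin receptor, was measured on too few arrays to compare. Its brightest probe stood at -0.43 and -1.0 on the FLT-Sham arrays replicate 4 and replicate 6, the ones above background, and between -4.23 and -0.43 on the other 13. Those same FLT-Sham arrays had the most probes above background of all, 20864 and 21461.

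The ligand Igf1 had 4 probes that did not behave alike. At the brightest, A_55_P2031631, the values were -1.86, 0.14, -0.51 and -0.10 in G-Sham, 0.42, -0.10, -0.77 and -0.10 in FLT-Sham, 0.04, 2.49, 0.44 and -0.09 in G-Surgery and 0.68, -0.40 and -2.20 in FLT-Surgery. All groups overlapped. The sham difference was 0.44 ± 0.50 (SE), with an adjusted p of 0.647 in limma's test, and its sign turned to -0.18 with a further loess. G-Surgery lay 1.30 ± 0.66 (SE) above G-Sham, with an adjusted p of 0.501, and without G-Surgery replicate 3 the difference was 0.71.

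A steadier Igf1 probe, A_55_P2031636, was above background on all 15 arrays. It gave 1.83, 1.61, 1.75 and 1.37 in G-Surgery against 0.60, 1.20, 0.93 and -0.43 in G-Sham, so that each operated ground mouse lay above each unoperated one. The difference was 1.06 ± 0.37 (SE), with an adjusted p of 0.365, short of the cut-off. Between FLT-Sham and G-Sham this probe went the other way from the brightest, at -0.67 ± 0.43 (SE). Between the surgery groups all 3 Igf1 probes that passed the filter were lower in FLT-Surgery, by 1.36, 1.66 and 0.88 on the log2 scale. At the brightest probe the difference was -0.58 without FLT-Surgery replicate 5, -0.77 without G-Surgery replicate 3, -0.45 with a further loess and -0.30 under normexp. The remaining probe was above background on 4 of 15 arrays.

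The kinases differed from each other. Pdpk1, which phosphorylates Akt in its activation loop, gave 1.10, 0.92, 0.43 and 0.38 in G-Surgery and -0.47, 0.38 and 0.08 in FLT-Surgery at its brightest probe, A_55_P2014361. Its G-Sham arrays gave 0.58, 0.35, -0.37 and -0.07, and its FLT-Sham arrays lay between 0.06 and 0.41. The surgery groups met where the highest FLT-Surgery array and the lowest G-Surgery array both rounded to 0.38, and the difference of -0.71 ± 0.33 (SE) is below a 2-fold change.

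A second Pdpk1 probe, A_55_P2451183, showed a larger gap between the surgery groups. It gave 0.93, 1.47, 1.27 and 0.24 in G-Surgery and 0.07, -1.95 and -1.70 in FLT-Surgery, without overlap, a difference of -2.17 ± 0.55 (SE). This probe was above background on 4 of 4 and 1 of 3 of these arrays. The third probe, A_55_P2014357, is paired with another Pdpk1 transcript and was above background on 3 FLT-Sham arrays alone.

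Between the sham groups the brightest Pdpk1 probe differed by 0.07 ± 0.32 (SE) and the second by 0.37 ± 0.36 (SE), with adjusted p of 0.920 and 0.610. The third was at least 2.78-fold higher in FLT-Sham, with an adjusted p of 0.522 and overlapping groups. The sign of the brightest probe's difference turned with the scaling.

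Akt1, the kinase at the end of the relay, gave 2.45, 3.04, 2.63 and 3.21 in G-Sham and 2.33, 1.95, 2.95 and 2.94 in FLT-Sham. It gave 1.82, 2.52, 2.86 and 2.69 in G-Surgery and 3.29, 2.15 and 1.97 in FLT-Surgery. Every pair of groups overlapped, and the differences ran from -0.36 ± 0.31 (SE) for G-Surgery against G-Sham to 0.00 ± 0.42 (SE) between the surgery groups. The adjusted p was 0.682 in the sham comparison, 0.677 for G-Surgery against G-Sham and 0.921 for FLT-Surgery against FLT-Sham.

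**Figure D3:**
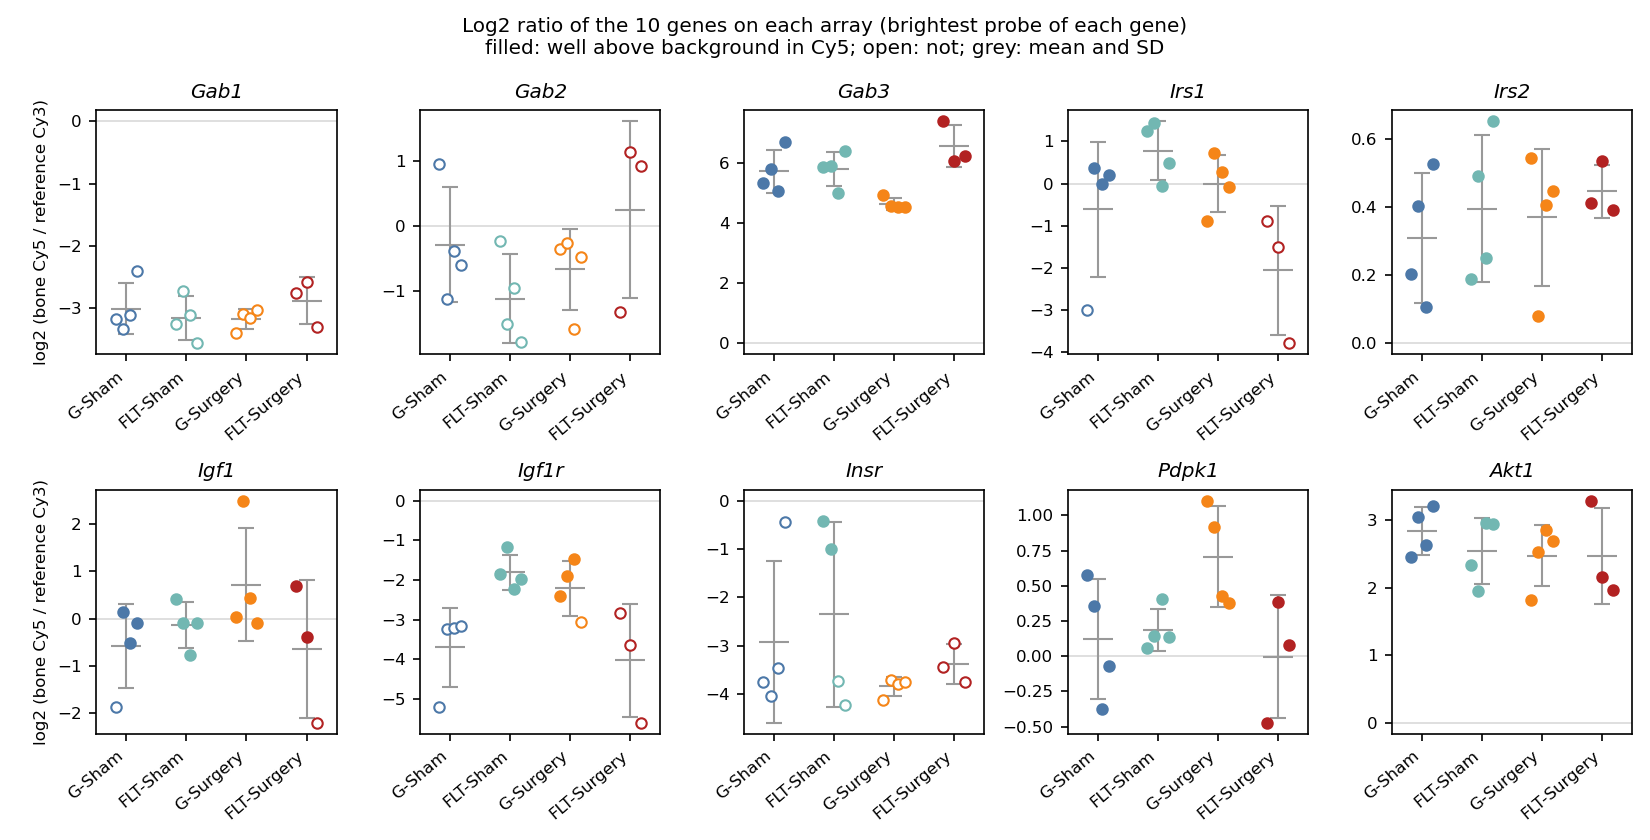
Log2 ratio of bone over reference RNA on each array for the 10 genes at their brightest probe, by group; filled points were well above background in Cy5, open points were not, and grey bars give the mean and SD. Igf1r is filled on all FLT-Sham arrays and open on all G-Sham arrays, Irs1 is open on all 3 FLT-Surgery arrays, and Gab3 lies above 6 on all of them. The vertical axis differs between panels.

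Set side by side, the members fell past the cut-off in small numbers. At the brightest probe, 1 of 7 genes was called in the sham comparison (Igf1r, higher, which passed the filter only through FLT-Sham). Between the surgery groups 1 of 7 lay past it (Gab3, higher), beside 3.14% of 16548 probes, and Irs1 and Pdpk1 lay past it at their second probes. These surgery counts describe how the genes were picked, as do the 2 genes without overlap at any probe besides Gab3, beside 13.6% of probes. For G-Surgery against G-Sham, 0 of the 4 genes that could be tested passed, beside 2.59% of probes. Of them 1, Igf1r, had an unadjusted p of at most 0.05, as did 1923 of all 17675 probes tested. For FLT-Surgery against FLT-Sham 0 of 4 passed, beside 6.65% of probes. Igf1r again had an unadjusted p of at most 0.05, as did 4649 of all 19136 probes tested. Irs1, lower at -2.84 ± 0.74 (SE), lay past the cut-off as a description. Direction by direction, 1.79% of probes were called higher and 0.208% lower in FLT-Sham than in G-Sham, and 3.64% and 0.957% lay higher and lower without overlap. In FLT-Surgery against G-Surgery 1.05% were called higher and 2.09% lower, and 6.02% and 7.54% did not overlap. For G-Surgery against G-Sham the calls were 2.08% higher and 0.509% lower, the probes without overlap 6.86% (5.31% higher, 1.56% lower), and those with an adjusted p of at most 0.05 0.0113%. For FLT-Surgery against FLT-Sham the calls were 0.423% higher and 6.22% lower, the probes without overlap 14.7% (4.06% higher, 10.6% lower), and those with an adjusted p of at most 0.05 0.0836%. The 4 comparisons share arrays in pairs and are not independent of one another. Which way the calls leaned depended on the scaling: of all probes called between the surgery groups 33.3% were higher in FLT-Surgery, but 95.1% with a further loess and 82.9% under normexp. Of sham calls 89.6% were higher in FLT-Sham, against 64.9% and 30.3%. For G-Surgery against G-Sham the share was 80.3%, against 56.4% and 40.2%, and for FLT-Surgery against FLT-Sham 6.37%, against 52.2% and 33.4%. The median of all probes moved with it, from 0.24 to -0.13 with a further loess in the sham comparison, from -0.20 to 0.30 between the surgery groups and from -0.28 to 0.36 for FLT-Surgery against FLT-Sham.

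**Figure D4:**
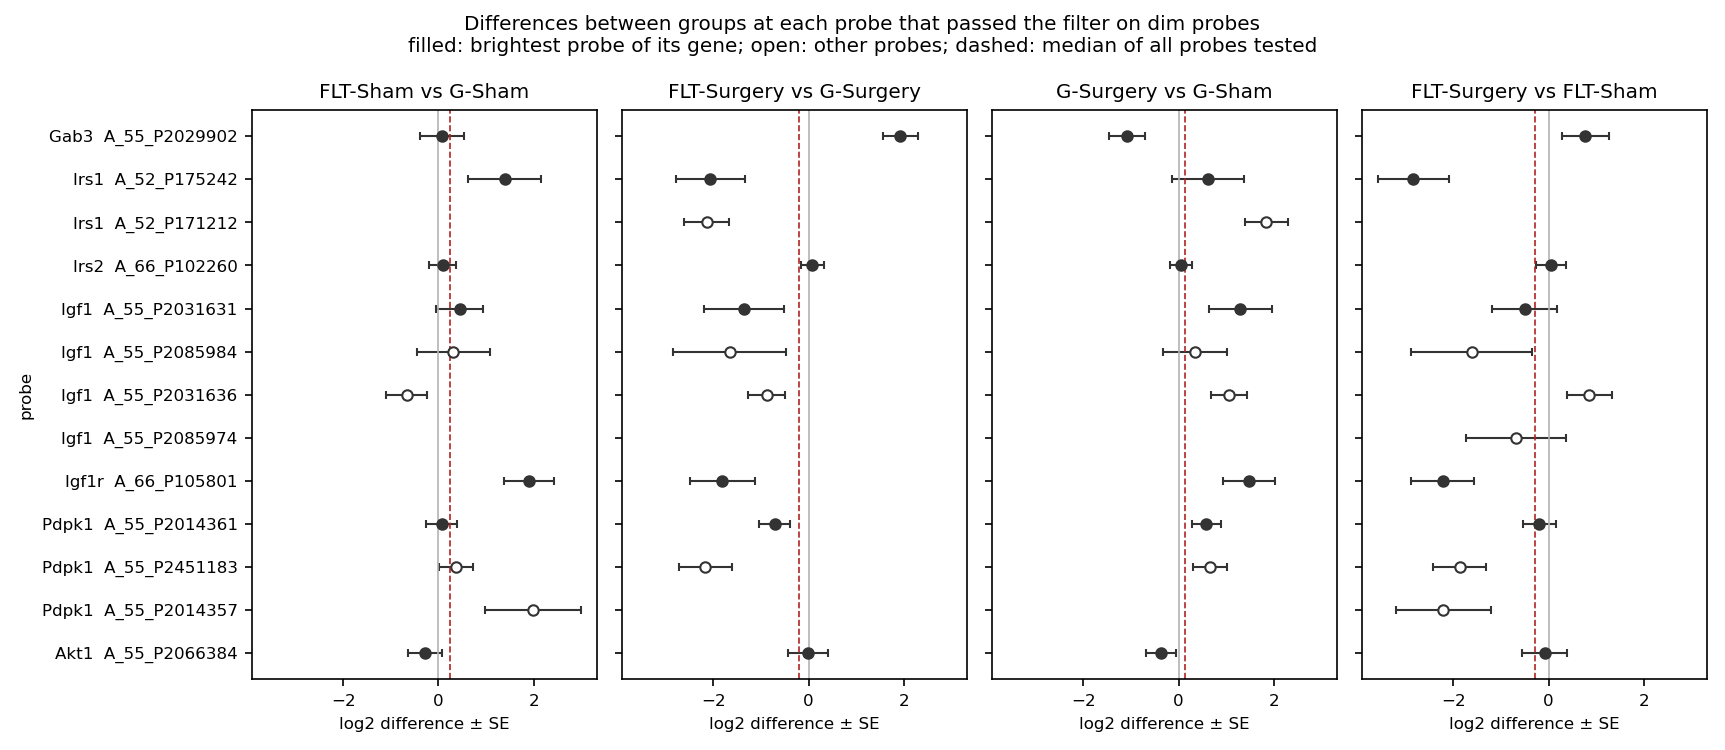
Log2 difference between groups with its standard error at each probe that passed the filter on dim probes, for the 4 comparisons; filled points are the brightest probe of a gene, open points are other probes, and the dashed line is the median over all probes tested. Irs2 and Akt1 lie within 0.36 of 0 in all panels, while Igf1r lies right of 0 in the sham panel (1.90) and left of it in the FLT-Surgery against FLT-Sham panel (-2.22).

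The genes around this relay were described from a list of 84 (other ligands and binding proteins, receptors, adaptors, PI3-kinase subunits, kinases, inhibitors, targets and the Ras-MAPK branch). Each had a probe, and 72 were above background on some array. Between the sham groups 64 could be tested and 0 passed the cut-off in limma's test, with 3 at an unadjusted p of at most 0.05 and 1 called with a further loess. Their median difference was 0.40, against 0.24 over all probes tested. Positive differences were found for 44 of the 64 (68.8%), against 61.1% of all probes tested, for 8 of 9 kinases, 4 of 9 Ras-MAPK genes and 0 of 2 ligands.

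Between the surgery groups 52 of the list could be tested, and 1 passed: Shc1, the adaptor that links receptors to Ras, which the study also took up from these arrays. It ran from -2.36 to -1.41 in FLT-Surgery and from -1.25 to -0.23 in G-Surgery, without overlap, a difference of -1.34 ± 0.36 (SE). No pathway gene was called lower with a further loess, in Cy5 alone or with linear scaling. The same held when any of 5 arrays was left out, namely FLT-Surgery 3 and 5 and G-Surgery 1, 3 and 4. The list's median was -0.43, against -0.20 over all probes. Positive differences were found for 18 of the 52 (34.6%), against 37.8% of all probes tested, and for 1 of 8 kinases.

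For G-Surgery against G-Sham 56 could be tested and 2 passed, both higher. Grb10, an adaptor that binds and restrains the insulin and IGF1 receptors, ran from 1.49 to 3.44 in G-Surgery and from -2.07 to 0.08 in G-Sham. It was above background on 4 of 4 and 0 of 4 of these arrays, at least 8.50-fold higher, with a fitted difference of 3.70 ± 0.57 (SE) and an adjusted p of 0.160. It entered the test only through G-Surgery, so its count among the calls adds nothing to these values. Its FLT-Surgery arrays ran from -0.58 to 1.69, and 2 of 3 were above background. Pik3r3, a regulatory subunit of PI3-kinase, was the other, at 2.63 ± 0.65 (SE) with an adjusted p of 0.290 and overlapping groups; it is named after its value was seen. The list's median was 0.18, against 0.14 over all probes.

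For FLT-Surgery against FLT-Sham 61 could be tested and 3 passed, all lower. These were Crk, an SH2 adaptor, Pik3cd, the leukocyte catalytic subunit of PI3-kinase, and Slc2a4, the insulin-responsive glucose transporter of muscle and fat, each with overlapping groups and named after its value was seen. Crk and Pik3cd were above background on 0 of 3 FLT-Surgery and 3 of 4 FLT-Sham arrays, at least 4.17-fold and 3.90-fold lower, and both entered the test only through FLT-Sham. Slc2a4 fell by 4.33 ± 1.15 (SE), from a range of 6.01 to 9.55 to one of 2.60 to 6.41, with an adjusted p of 0.144. Positive differences were found for 21 of the 61 (34.4%), against 41.4% of all probes tested, and for 0 of 8 kinases. The list's median was -0.62, against -0.28 over all probes.

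**Figure D5:**
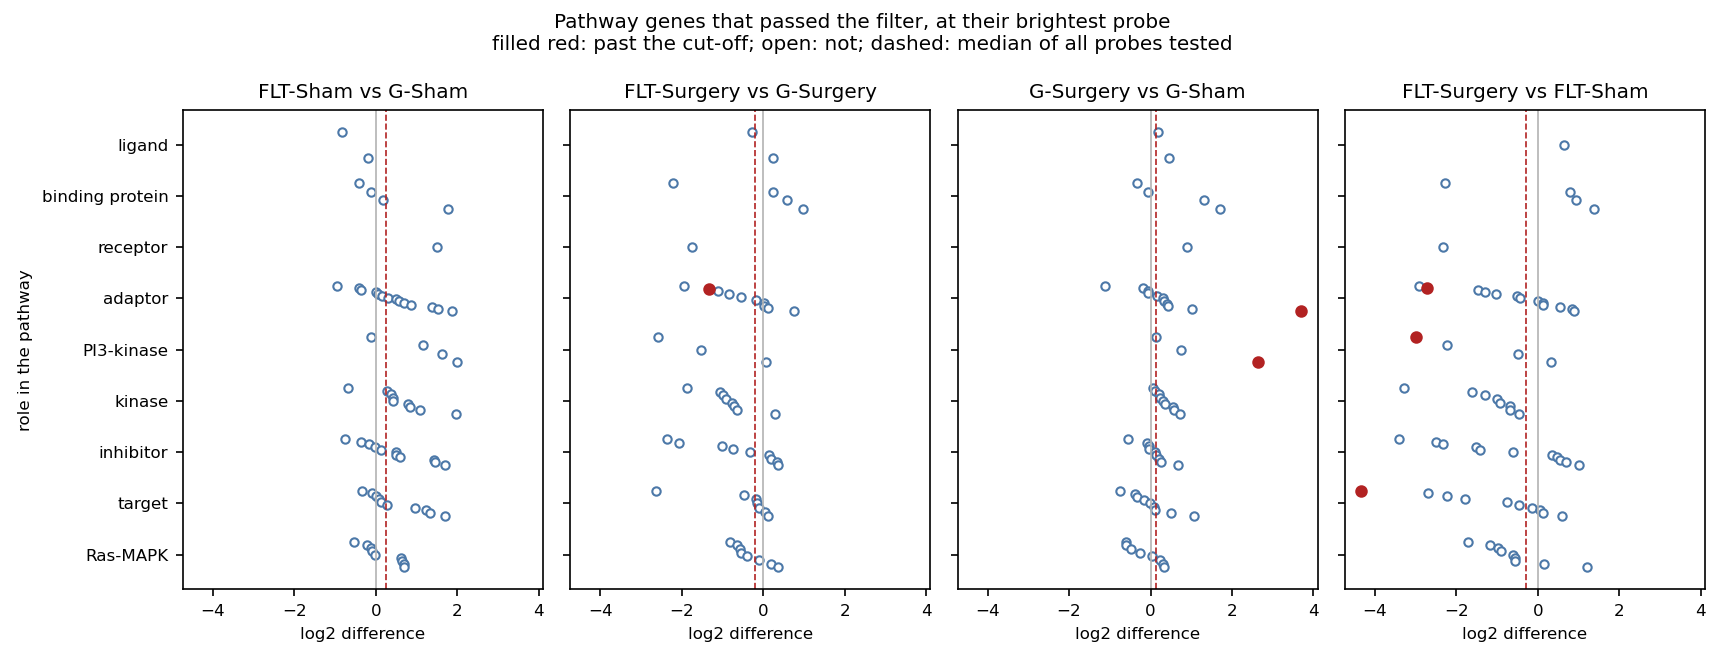
Log2 differences of the pathway genes that passed the filter on dim probes, at their brightest probe, by role, in the 4 comparisons; red points passed the cut-off, open points did not, and the dashed line is the median over all probes tested. Grb10 (3.70) stands furthest right among adaptors in the G-Surgery against G-Sham panel, and Slc2a4 (-4.33) furthest left among targets in the FLT-Surgery against FLT-Sham panel.

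Markers of other cells in the dissected midshaft also differed between the groups, only in part alongside these differences. The summed Cy5 signal of the 12 skeletal muscle markers ran from 555289 to 2823880 in G-Sham, 859180 to 8156950 in FLT-Sham, 446795 to 2199860 in G-Surgery and 126521 to 1691830 in FLT-Surgery. Between the surgery groups 11 of 11 muscle markers tested had a negative difference, with a median of -2.31, and 2 passed the cut-off. The FLT-Surgery group, where Irs1, Igf1r and Slc2a4 were lowest, also had the lowest range of muscle signal and of probes above background.

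The 7 adipocyte markers (Lep was above background on no array) summed to 796.8 to 10597 in G-Sham and 9311 to 51990 in FLT-Sham, where Igf1r was high. They summed to 2614 to 10412 in G-Surgery, near the range of G-Sham, although Igf1r was above background on 3 of 4 G-Surgery arrays and 0 of 4 G-Sham arrays. In FLT-Surgery they summed to 729.3 to 7818. The 10 macrophage and monocyte markers with a probe (Cd163 was at background on every array) summed to 226482 to 410033 in G-Surgery and 494265 to 792707 in FLT-Surgery, where the Gab3 probe was high. Their sums were 272845 to 602034 in G-Sham and 196129 to 744210 in FLT-Sham. The mean log2 ratio of the 8 used ran the other way, from 0.37 to 1.07 in G-Surgery and from -0.43 to 0.85 in FLT-Surgery. Of 7 tested between the surgery groups, 3 had a positive and 4 a negative difference, with a median of -0.33. The erythroid sum ran from 22953 to 132079 in FLT-Sham and at most to 23705 elsewhere, the neutrophil sum ran from 15964 to 109817 in FLT-Surgery and from 54244 to 394262 elsewhere, and the B cell sum ran from 778.8 to 2745 on 14 arrays and to 123755 on 1 FLT-Surgery array. The part of these cells in the differences of the relay genes was not tested, and in bulk bone fewer cells of a type cannot be told apart from less RNA per cell.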

How the data were processed

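Bone RNA of 15 femoral midshafts was hybridised in Cy5 against reference RNA in Cy3 on Agilent arrays. The authors deposited scanner output of Agilent Feature Extraction (version 12.0 per the labels) with the log10 ratio of the processed Cy5 and Cy3 intensity values, which already holds the software's lowess correction, and it was used as deposited, multiplied to the log2 scale. The deposited series table differed from it by at most 0.005 in log10 ratio. Control spots were left out and spots of a probe averaged. Groups came from the labels. Probes above background on at least 3 compared arrays entered the fits of limma 3.58.1 (R 4.3.3, with the package data.table, 1.17.8). The cut-off was a fold of at least 2 with an unadjusted p of at most 0.01, as in the study's methods, and Benjamini-Hochberg adjusted p-values over all probes tested stand beside it. P-values measure the spread between these samples. The fits were tested on simulated data. The members and gene lists were chosen with earlier results of these data known. All 10 members were named at every probe, pathway genes where they passed the cut-off without overlap (Pik3r3, Crk, Pik3cd and Slc2a4, which overlapped, were added after their values were seen), and the 5 nearest genes by pattern for Gab3 and Irs1, of which 1 is not reported here. Alternatives changed the scaling, background correction, filter, array weights, slide block and arrays included. The number of arrays limits the precision.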

Additional observations from a re-analysis of the deposited data

Results flagged for a closer look

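In 3 of 21 tests of single arrays against their group, at the members' probes, an array lay further from the others than Dixon's criterion allows at the 95% level; chance alone gives about 1.05. For Gab3, G-Surgery replicate 1 had a log2 ratio of 4.95, against 4.53 to 4.58 on the other 3 arrays. For Irs1, G-Sham replicate 1 had -3.0, against -0.02 to 0.37. For Igf1r the same array had -5.20, against -3.23 to -3.16. Both low values belong to the G-Sham array with the fewest probes above background, 12869, and their cause was not tested. Without that array the FLT-Sham minus G-Sham difference was 0.60 for Irs1 and 1.40 for Igf1r.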

How the results depend on the processing

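Counts of member genes past the cut-off changed as follows. In the sham comparison the 1 gene became 0 under normexp, with the filter in both channels, with the slide as a block and at an adjusted p of at most 0.05, and 0 to 1 with an array left out. Between the surgery groups the 1 gene became 0 with linear scaling and by adjusted p, 2 with the slide block, 2 with array weights and 3 at any probe, and 1 to 3 with an array left out. For FLT-Surgery against FLT-Sham 0 became 1 with array weights and 1 with all 15 arrays, and 0 to 1 with an array left out. The interaction count of 1 became 0 under normexp and with the filter in both channels.

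Of the pathway genes, the sham count of 0 became 1 with a further loess, 18 with array weights and 2 at any probe, and 0 to 9 with an array left out. Between the surgery groups the 1 lower gene became 1 higher with a further loess and in Cy5 alone, 0 with linear scaling, 8 with the slide block, 13 with array weights, 2 with all 15 arrays and 0 by adjusted p, and 0 to 14 with an array left out, the 14 without FLT-Surgery replicate 1. For G-Surgery against G-Sham 2 became 1 with a further loess, under normexp, with the filter in both channels, with the slide block and with the replicate block, 0 by adjusted p, and 1 to 3 with an array left out. For FLT-Surgery against FLT-Sham 3 became 0 under normexp, with linear scaling, with the slide block and by adjusted p, 1 with the filter in both channels, 31 with array weights, 9 with all 15 arrays and 5 at any probe, and 0 to 17 with an array left out.

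Small differences turned sign. Between the sham groups Gab3 was -0.021 with a further loess and -0.15 with the slide block, Irs2 was -0.14 with a further loess, -0.093 under normexp and -0.12 in Cy5 alone, Igf1 was -0.18 with a further loess, and Igf1r was -0.12 under normexp. Pdpk1 was -0.18 with a further loess, -0.18 under normexp, -0.035 in Cy5 alone and -0.10 with the slide block, and Akt1 was 0.46 with linear scaling. For G-Surgery against G-Sham Irs2 was -0.056 with a further loess, -0.025 under normexp, -0.13 with linear scaling, -0.15 in Cy5 alone and -0.10 with the slide block. For FLT-Surgery against FLT-Sham Irs2 was -1.03 with linear scaling, Igf1 was 0.55 with a further loess, 0.075 under normexp and 0.026 in Cy5 alone, Igf1r was 0.37 under normexp, and Akt1 was 0.19 with a further loess, 0.11 in Cy5 alone and 0.23 with the slide block. With an array left out the sham differences ran from -0.14 to 0.40 for Gab3, -0.10 to 0.22 for Pdpk1 and 1.40 to 2.08 for Igf1r. Irs2 ran from -0.0080 to 0.16 for G-Surgery against G-Sham and -0.018 to 0.14 for FLT-Surgery against FLT-Sham, where Igf1 ran from -1.16 to 0.28 and Akt1 from -0.48 to 0.17. The cause of these changes was not tested.

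Same-numbered samples did not deviate together (correlations of -0.36, -0.19 and 0.24 between the surgery groups, and 0.35, -0.05, -0.07 and -0.16 for G-Surgery against G-Sham), so the numbers were not taken as pairs. With the replicate block 215 probes passed between the surgery groups against 519 without it, and 389 against 458 for G-Surgery against G-Sham. The block left 1 and 0 member genes and 1 and 1 pathway genes, with Gab3 at 1.89, Irs1 at -1.97, Pdpk1 at -0.80 and Igf1r at -1.56 between the surgery groups. Normexp was run on median signals. Probes at background limit Gab1, Gab2 and Insr.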
